A study of Mus musculus with 4 samples.

Results

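The genes described here are interferon response genes, a list of 41 mouse genes that cells switch on when an interferon binds its receptor. They were taken as the rows of the count matrix whose symbol is on the list. The list itself was chosen with earlier results of these data known. Of the 41, 40 were found among the 30905 genes of the matrix, and Mx2 was not analysed here. The counts come from droplet single-cell RNA sequencing (10x Chromium 3' kit, version 3) of mouse prostates taken apart with collagenase and TrypLE. Each of 4 groups is 1 library. The groups are prostates with Trp53 intact at 4 months of age, Trp53 intact with ADT at 5.5 months, Trp53 deleted at 3.5 months, and Trp53 deleted with ADT at 5.5 months. Intact refers to Trp53 alone, not to a prostate that is otherwise unmodified. The genotype marks the deletion with PC, taken here to mean that it is limited to prostate cells. ADT is given in the labels as an abbreviation and is taken here as androgen deprivation therapy. The effects of ADT, of age and of the library itself cannot be told apart, and those of genotype and library cannot either. Since each group is 1 library, the groups are not tested against each other and the text holds no p-values. Wherever 4 values follow each other, they are in the order Trp53-intact, Trp53-intact ADT, Trp53-deleted, Trp53-deleted ADT.

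Type I interferons (the interferon alphas and interferon beta) bind the receptor Ifnar1 with Ifnar2 and act through a complex that holds Stat2 and Irf9 and binds a DNA element called ISRE beside its target genes. Interferon gamma, made by NK and T cells, binds Ifngr1 with Ifngr2 and acts on genes through a DNA element called GAS. Many targets answer to both, but antiviral effectors such as the Ifit genes, Rsad2 and the Oas genes are mainly known as type I targets. The guanylate-binding proteins, the immunity-related GTPases, Irf1 and the chemokine Cxcl9 are best known from the response to interferon gamma.

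The members lie on many chromosomes, some in tight groups of related genes. On GRCm38, Ifit2, Ifit3, Ifit3b and Ifit1 lie in that order on chromosome 19 between bases 34550694 and 34650009. Gbp5, Gbp7, Gbp3 and Gbp2 lie in that order on chromosome 3 between 142493978 and 142638008. Cxcl9 and Cxcl10 are neighbours on chromosome 5, and so are Oas2 and Oas3. Rsad2 and Cmpk2 are neighbours on chromosome 12 and point away from each other. Such neighbours are not independent of each other, and related members can share sequence. Of the 75-base stretches in the last 500 bases of Oas1a transcripts, 46.0% occur in Oas1g too. For Ifit3 the share is 9.86%, all with Ifit3b, and for Gbp4 it is 8.0%, so the counts of Oas1a in particular are uncertain.

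Promoter sequence was read for the members from RefSeq on GRCm38.p6, which matched 32 of the 41 names, and the 250 bases before the start of each gene were searched on both strands. The ISRE core was searched as a pair of GAAA with any 2 bases between them, which reads as a pair of TTTC on the other strand, and the GAS element as TTCNNNGAA, which is its own reverse complement. The ISRE core was found in 16 of 32 members and in 936 of 27025 genes with a promoter in the same tables (3.46%, or 2.98% of 32851 promoters). GAS letters were found in 8 of 32 members (25.0%), against 8.13% of genes and 7.02% of promoters. The windows below are printed for members on which the results turn, each with 30 bases on either side of the match and on the strand of the gene. Capitals mark bases that match an element.
Rsad2, chr12:26456533-26456602, minus strand, ISRE core: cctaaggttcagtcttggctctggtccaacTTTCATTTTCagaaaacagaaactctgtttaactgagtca
Ifit3, chr19:34583343-34583446, plus strand, 2 ISRE cores: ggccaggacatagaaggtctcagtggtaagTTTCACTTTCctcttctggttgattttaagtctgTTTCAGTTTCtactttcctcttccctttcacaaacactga
Isg15, chr4:156200845-156200926, minus strand, 3 overlapping ISRE cores: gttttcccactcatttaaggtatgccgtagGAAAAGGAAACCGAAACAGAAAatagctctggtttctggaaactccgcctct
Bst2, chr8:71537557-71537638, minus strand, GAS overlapping ISRE cores: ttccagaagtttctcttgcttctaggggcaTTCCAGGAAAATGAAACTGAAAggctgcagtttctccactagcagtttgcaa
Gbp2, chr3:142620574-142620643, plus strand, ISRE core: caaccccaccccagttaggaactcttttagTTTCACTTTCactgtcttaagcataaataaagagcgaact
Cxcl10, chr5:92349063-92349132, minus strand, ISRE core: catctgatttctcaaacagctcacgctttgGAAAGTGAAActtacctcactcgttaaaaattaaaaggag
Irf1, chr11:53769894-53769962, plus strand, GAS: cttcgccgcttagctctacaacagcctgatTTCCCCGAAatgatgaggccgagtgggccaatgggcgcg
Among these 7 windows Irf1 is the one with GAS letters and no ISRE core, and Bst2 has both elements run together. A match of letters is a description of the sequence and not evidence that a factor binds there.

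The libraries held 58088678 to 148030357 unique molecular identifiers (UMIs, 1 per captured RNA molecule), and 5338 to 8810 cells per library were kept, with medians of 4147 to 5647 UMIs per cell. Between 12 and 31 cell barcodes were shared by any pair of libraries, at most 0.330% of the smaller one. Cells were clustered without the interferon genes, so that the members did not decide the classes, and clusters were named from marker genes as "-like". In luminal progenitor-like cells the deleted gene itself, Trp53, stood at 55.7, 87.8, 17.3 and 18.4 CPM (UMIs of a gene scaled to an equal class total), lower in both libraries labelled as deleted, although the labels do not say which exons are deleted, and 3' reads may lie outside them. Fibroblast-like cells had 45.0, 69.0, 46.7 and 50.1 CPM of Trp53. Every level below is in CPM, from the UMIs of all cells of a class in a library. Since UMIs are counted at the 3' end, they were not divided by gene length. Intervals are exact at the 95% level and cover counting error only, not the spread between mice. Some counts of members are also given under changed settings. Where no share of all genes stands beside such a count, that share was not counted, so the count has no background.

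Neutrophil-like cells held the most interferon response RNA in all 4 libraries, with a summed level over the 40 members of 11338, 9771, 16507 and 10023 CPM. The Trp53-deleted library stood apart from the other libraries there. Rsad2, which encodes the antiviral enzyme viperin, made up 28.2%, 20.8%, 24.7% and 20.5% of that sum. Luminal progenitor-like cells, the main epithelial class, came to 2829, 4459, 3712 and 3642 CPM and macrophage-like cells to 2859, 3073, 3936 and 3127 CPM. T-like cells were at 1022, 982, 1442 and 2500 CPM and dendritic-like cells at 1298, 2807, 1599 and 2725 CPM. T-like cells were the lower in each library, by the most in Trp53-intact ADT. B-like cells were among the 3 lowest classes in every library, at 534, 566, 772 and 873 CPM.

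**Figure D1:**
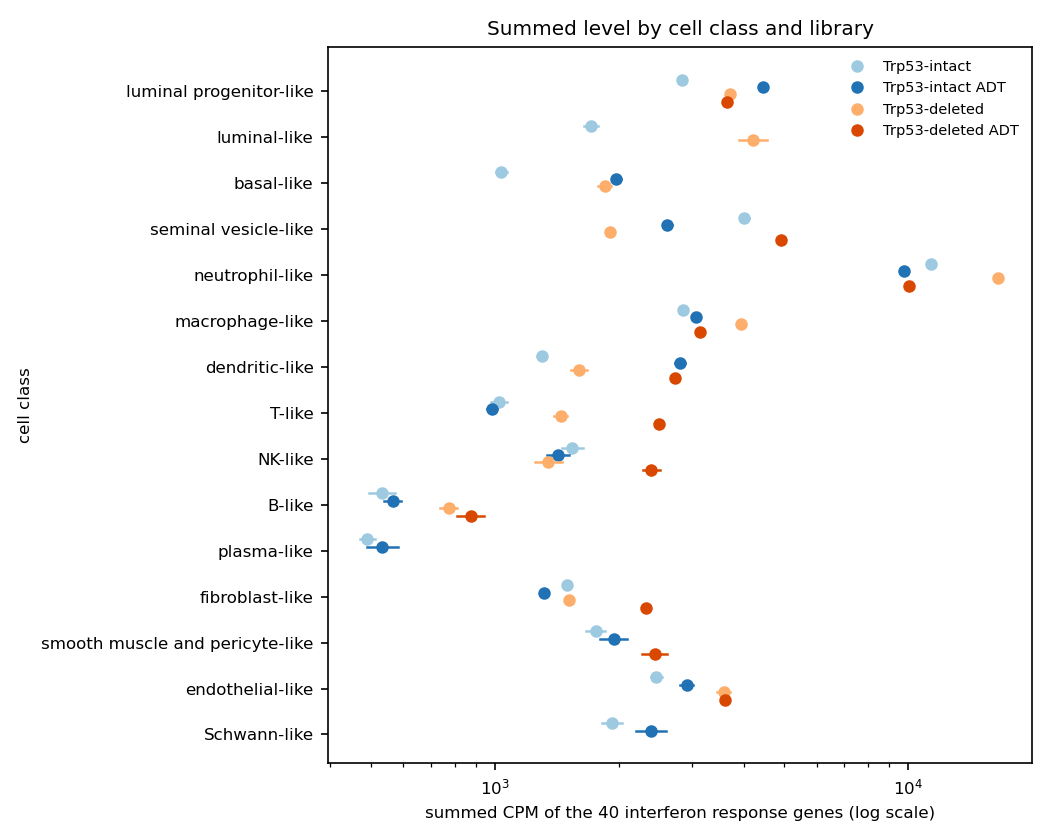
Summed CPM of the 40 interferon response genes (x axis, log scale) in each cell class with at least 50 cells in the library (y axis); each point is 1 library and each line its exact 95% counting interval. Neutrophil-like cells lie to the right in all 4 libraries (9771 to 16507 CPM), and T-like cells run from 982 CPM with ADT and intact Trp53 to 2500 CPM with ADT and deleted Trp53.

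The members did not share 1 cell type. Neutrophil-like cells held the highest level of 27, 20, 25 and 23 of the 40 members. These took in, in every library, Ifit1, Ifit2, Ifit3, Ifit3b, Rsad2 and Cmpk2, the IFIT proteins and the viperin gene with its neighbour, and Isg15 and Usp18, a ubiquitin-like protein and the protease that removes it. They also took in Oas3, Oasl1, Oasl2, Isg20, Slfn4 and Rtp4 among the antiviral effectors, the RNA sensor Ddx58, the GTPase Gbp2, Parp14 and Cxcl10. Mx1, an antiviral GTPase, was highest in dendritic-like cells in every library. Iigp1, an immunity-related GTPase, was highest in endothelial-like cells in every library, at 262, 550.5, 356 and 464 CPM there.

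Other members moved between classes from library to library. Irf7, the factor that amplifies type I responses, was highest in neutrophil-like, luminal progenitor-like, luminal-like and neutrophil-like cells in turn. Xaf1, Zbp1, Ifi35, Ifi44, Irf9 and Oas2 had their highest level in luminal progenitor-like cells of the Trp53-intact ADT library and of no more than 1 other library. The remaining GTPases (Igtp, Irgm1, Gbp3, Gbp4, Gbp5 and Gbp7) were led by endothelial-like, lymphatic endothelial-like, Schwann-like, neutrophil-like, NK-like, luminal-like or seminal vesicle-like cells, depending on the library. Bst2, which tethers virus particles to the cell surface, and Oas1a were highest in macrophage-like cells in all but 1 library each. Cxcl9, a chemokine that draws T cells, was highest in macrophage-like cells in both libraries without ADT and in dendritic-like or seminal vesicle-like cells in those with ADT. Lgals3bp, a secreted glycoprotein, was led by luminal progenitor-like or seminal vesicle-like cells. Ifih1, Irf1 and Stat2 were led by neutrophil-like, endothelial-like, dendritic-like, Schwann-like or seminal vesicle-like cells.

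With ADT and intact Trp53, the members were higher in luminal progenitor-like, basal-like and dendritic-like cells, and not in most other classes. Luminal-like cells were too few with ADT (3 cells) to be compared. The log2 ratio of ADT to no ADT, with 5 CPM added to both levels, had a median over the members of 0.73 in luminal progenitor-like cells and of 1.03 in basal-like cells. Dendritic-like cells came to 0.82. T-like (0.01), NK-like (0.03), endothelial-like (-0.01) and fibroblast-like cells (-0.03) had medians near 0, as did macrophage-like cells at 0.18 and neutrophil-like cells at -0.13. In all, 9 of 14 classes had a median above 0 and 6 of 14 had one above the median over all genes of that class. The median over all genes in these 14 classes ran from -0.01 to 0.19 on the same scale.

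**Figure D2:**
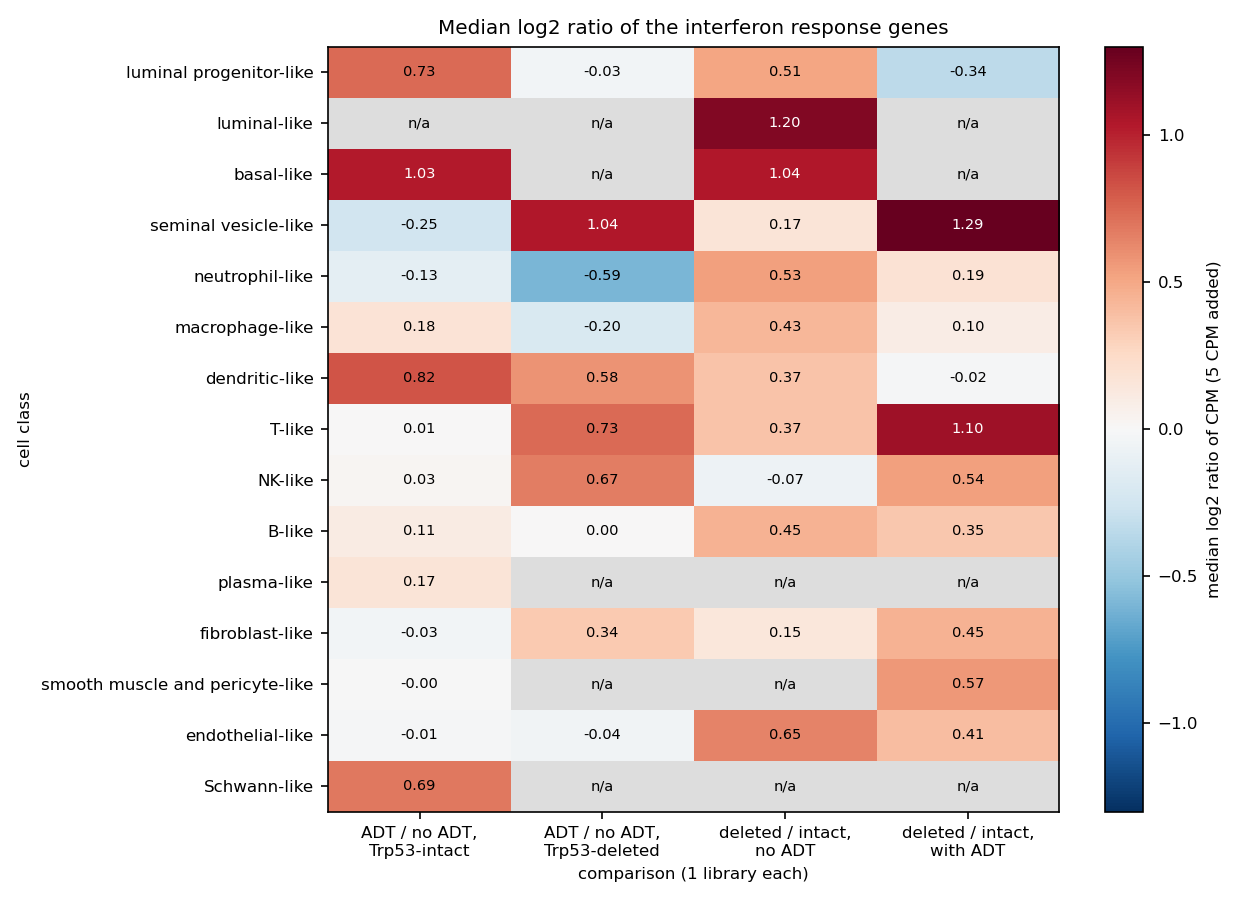
Median log2 ratio of CPM (5 CPM added) over the interferon response genes with at least 20 UMIs, for each cell class (rows) and each comparison of 2 libraries (columns); grey cells have fewer than 50 cells in a library. For ADT, the luminal progenitor-like row holds 0.73 in the Trp53-intact and -0.03 in the Trp53-deleted column, the basal-like row holds 1.03 and a grey cell, and the T-like row holds 0.01 and 0.73.

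In luminal progenitor-like cells, 26 of 40 members were at least 1.5-fold higher with ADT and intact Trp53 and 1 was lower, where 6.13% and 5.32% of all genes were. Slfn4, a schlafen gene of the antiviral group, stood at 3.48, 28.2, 5.73 and 7.97 CPM. Only the Trp53-intact ADT library was high, with a 95% interval of 25.2 to 31.5 CPM against 2.71 to 4.39 CPM without ADT, and the log2 ratio was 1.97. Ifit3 had 79.6, 232, 165 and 154 CPM, so that the Trp53-intact library without ADT was the low one (log2 ratio 1.49). Bst2 had 132, 361, 212 and 267 CPM (log2 ratio 1.42). Gbp3, a guanylate-binding protein, had 7.70, 28.7, 26.8 and 26.6 CPM, low in the first library and alike in the others. At the other end Cxcl10, a chemokine that draws T cells, went against the rest, with 200.2 CPM without and 106 CPM with ADT (log2 ratio -0.89). The macrophage genes C1qa, C1qb and C1qc summed to 81.8, 22.4, 28.3 and 170 CPM in this class, ranking the libraries as Cxcl10 did. Scaled by them, macrophage RNA could carry 2.72, 0.682, 2.21 and 5.28 CPM of Cxcl10, and its part was not tested. Lgals3bp did not pass 1.5-fold, with 434 and 334 CPM, and Oasl1 and Gbp4 differed by 0.08 and 0.11 on the log2 scale. The neutrophil genes S100a8 and S100a9 summed to 18.3, 74.2, 17.8 and 63.0 CPM in this class. Scaled by them, neutrophil RNA could carry 0.152%, 0.359%, 0.331% and 0.503% of the member CPM. Its part in Slfn4 was not tested.

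The role groups differed in luminal progenitor-like cells. Both Isg15 and Usp18 were at least 1.5-fold higher, as were 10 of 13 OAS, Mx and other antiviral effectors, 6 of 8 interferon-inducible GTPases, 3 of 5 transcription factors, 3 of 6 IFIT and viperin effectors and 1 of 3 nucleic acid sensors. The group medians ran from 0.53 for the IFIT and viperin effectors to 1.23 for Isg15 with Usp18, leaving aside the 3 secreted members at -0.37. The class was made mostly of 2 clusters. In cluster 8, led by Wfdc2 and Psca, the member median was 0.67. In cluster 20 it was 1.17, but that cluster is shallow (median 2373 UMIs per cell, against 33679). It has no marker of the class among its 10 leading genes. Gm26917, Lars2 and the member Oas2 are among the genes that lead it. At Leiden resolution 2, a luminal progenitor-like cluster led by Psca and Mmp7 held 387, 30, 242 and 25 cells. Another, led by Gabrp and Cxcl15, held 14, 238, 9 and 92 cells. So the libraries with and without ADT held largely different cells of this class outside the shallow cluster. The part of that in the ratios was not tested.

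Joined into 1 epithelial-like class, luminal progenitor-like, basal-like and luminal-like cells had 25 of 40 members at least 1.5-fold higher and 1 lower (5.73% and 5.02% of all genes), and 11 at least 2-fold higher (1.65%). Luminal-like cells numbered 645, 3, 59 and 1, so the joined class held almost none of them with ADT. Their summed member level in the Trp53-intact library was 1711 CPM, and the part of this change of makeup in the joined ratios was not tested.

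Basal-like cells, counted in 117 cells with ADT and 145 without, had 32 of 37 members at least 1.5-fold higher and 1 lower, where 8.0% and 5.37% of all genes were. Rsad2 stood at 1.74 CPM without ADT, 55.0 CPM with ADT and 7.68 CPM with Trp53 deleted, so it was high in 1 library of 3 (log2 ratio 3.15). The level without ADT is below the 5 CPM added for ratios. The neutrophil genes S100a8 and S100a9 summed to 17.4, 88.9 and 16.0 CPM in these libraries. Scaled by them, neutrophil RNA could carry 1.16, 3.99 and 2.72 CPM of Rsad2. Ifit3 had 3.2, 31.3 and 41.6 CPM in the same 3 libraries, Isg15 18.9, 96.5 and 65.9 CPM, and Ifit1 22.7, 110 and 89.0 CPM. For these 3 the Trp53-intact library without ADT was low and the other 2 were not far apart. Cxcl10 again ran the other way, with 318, 148 and 193 CPM. C1qa, C1qb and C1qc summed to 135, 24.7 and 37.8 CPM in these libraries, and the part of macrophage RNA was not tested. Too few basal-like cells (25) were found in the Trp53-deleted ADT library to give levels.

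Dendritic-like cells of the Trp53-intact ADT library had 30 of 39 members at least 1.5-fold higher and 0 lower, where 7.48% and 4.25% of all genes were. Here Cxcl10 moved with the rest, at 111 CPM without and 412 CPM with ADT, and Ifit3 (17.9 and 96.7 CPM), Irf7 (44.6 and 194 CPM) and Isg20, an RNA exonuclease (15.9 and 74.5 CPM), were highest by ratio. Irf1, Irf9, Stat2 and Mx1 had log2 ratios of 0.07, 0.21, -0.12 and -0.04. The class was led by cluster 14, with a median of 1.05, and a second cluster marked by Ccr7 and Ccl22 had 0.42. Few cells carried much of this: without the 10% of cells of each library with the highest member share, the median was 0.36 and 9 of 35 members passed 1.5-fold, and when each library was clustered alone it was 0.39, with 18 of 39 members higher and 5 lower. Neutrophil marker genes (9 of 9 detected in both libraries) summed to 264 CPM without and 472 CPM with ADT in this class. Scaled by S100a8 and S100a9, RNA from neutrophils could carry 0.329% and 2.03% of the member CPM.

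Taken as whole classes, T-like, fibroblast-like and macrophage-like cells differed little from the background of all genes in this comparison. T-like cells had 3 of 38 members higher and 0 lower (7.0% and 9.8% of all genes), although 11 of 37 were higher (median 0.20) when each library was clustered alone. Counts were as low for fibroblast-like cells, at 1 and 2 of 40 (6.76% and 6.52%), and for macrophage-like cells, at 5 and 4 of 40 (5.06% and 3.73%). The macrophage-like cells came mostly from cluster 12 without ADT (726 of 957) and cluster 1 with it (197 of 288). In them Cxcl9 had 86.6 CPM without and 22.2 CPM with ADT, and Cmpk2 had 12.6 and 43.5 CPM. Within the macrophage-like class, cluster 1 had a median of -0.06 (106 cells without and 197 with ADT). Cluster 27 had one of 0.59 (101 and 51 cells), with 17 of 34 members higher and 4 lower (12.7% and 5.35% of all genes). The fibroblast-like cells of both libraries came largely from different clusters, with 907 cells of cluster 2 without ADT and 848 of cluster 7 with it. Cluster 21, found in both (114 cells without and 102 with ADT), had a median of 0.51. There 16 of 34 members were higher and 1 lower (12.9% and 9.42% of all genes). Neutrophil-like cells had 1 of 39 members higher and 4 lower (15.4% and 6.08%), among them Rsad2 at 3196 and 2031 CPM. That class joined clusters that went apart: the member median was 0.03 in cluster 0, 0.44 in cluster 25 and -1.27 in cluster 18, which held 69 cells without and 348 with ADT. Schwann-like cells had a median of 0.69 (84 and 172 cells, 16 of 28 members higher and 3 lower, against 16.0% and 18.3% of all genes). It was -2.74 over the 2 members with at least 100 UMIs, Irf1 and Cxcl10, the latter at 517 CPM without and 4.13 CPM with ADT. An unnamed cluster led by Ccl8, Folr2 and Cd163 had a median of -0.83, with 27 of 40 members lower (10.6% of all genes) and 2 higher (14.2%), on 50 cells with ADT and 458 without.

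With ADT and deleted Trp53 the pattern was a different one. The members were higher in T-like, NK-like and dendritic-like cells. They were at about the same level in luminal progenitor-like cells taken as a whole, and were lower in neutrophil-like cells. The medians of the log2 ratio of ADT to no ADT were 0.73 in T-like, 0.67 in NK-like, 0.58 in dendritic-like and 0.34 in fibroblast-like cells. They were -0.03 in luminal progenitor-like, -0.04 in endothelial-like, -0.20 in macrophage-like and -0.59 in neutrophil-like cells. Of 10 classes, 6 had a median above 0 and 8 had one above the median over all genes of the class. The size of these ratios has no replicate behind it, so a difference between the genotypes was not tested.

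**Figure D3:**
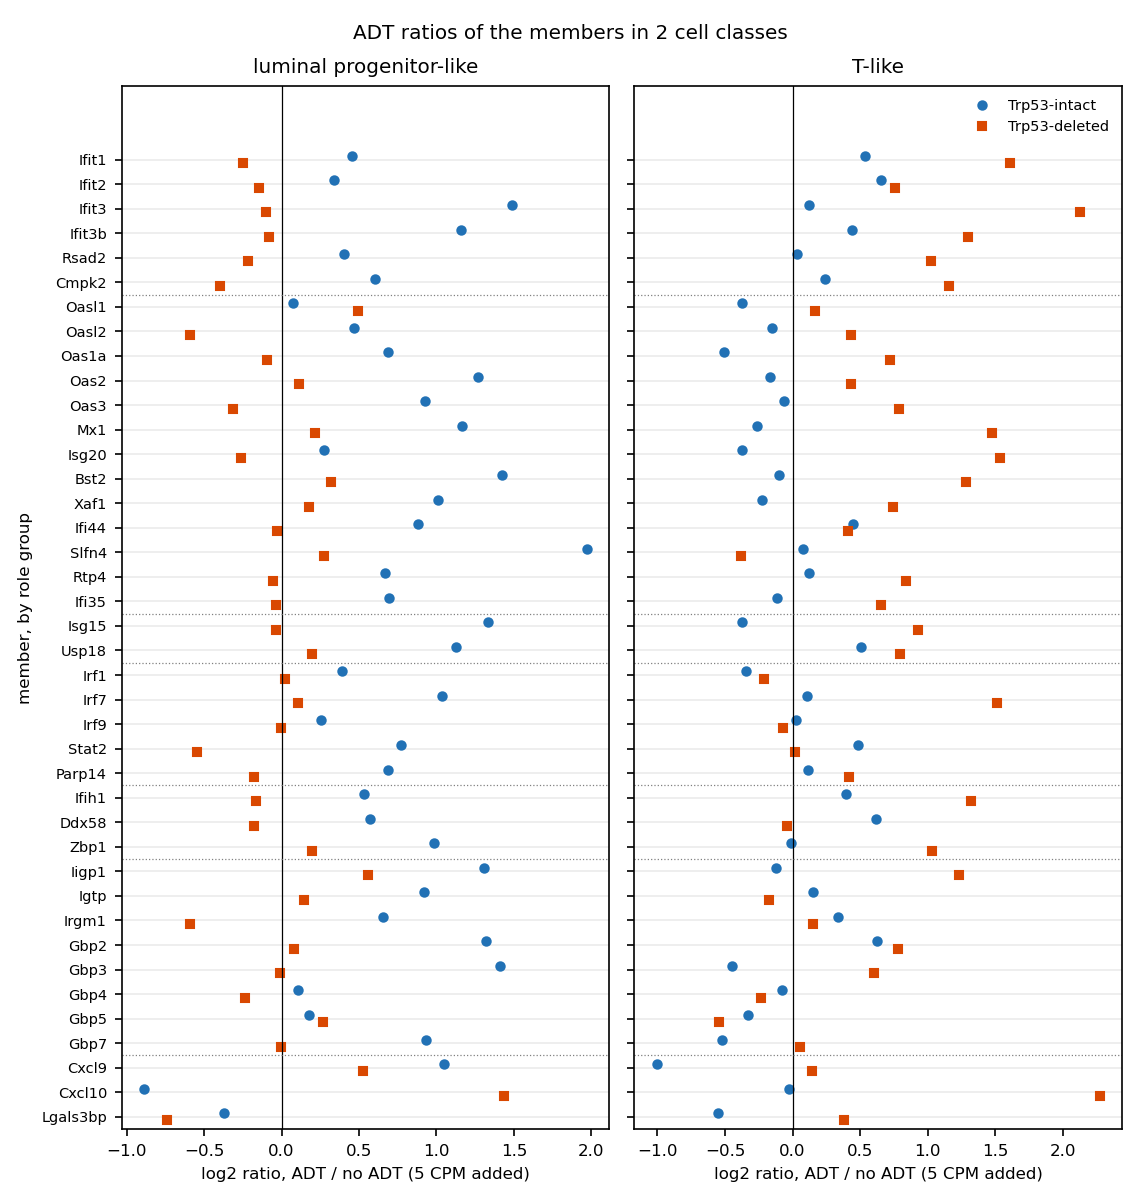
Log2 ratio of CPM with ADT to CPM without (5 CPM added, x axis) for each of the 40 members, including those under 20 UMIs, grouped by role (y axis, dotted lines between role groups), in luminal progenitor-like cells (left) and T-like cells (right). In luminal progenitor-like cells the Trp53-intact points lie right of 0 for 38 of 40 members and in T-like cells the Trp53-deleted points do for 33 of 40, with Cxcl10 farthest to the right at 2.28.

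In the Trp53-deleted ADT library, T-like cells had 23 of 40 members at least 1.5-fold higher and 0 lower, where 10.1% and 17.5% of all genes were. Cxcl10 stood at 45.7, 44.8, 46.1 and 242 CPM. The first 3 libraries were alike and the last was high, with an interval of 227 to 258 CPM (log2 ratio 2.28). Ifit3 had 9.67, 10.9, 17.7 and 94.1 CPM (log2 ratio 2.13), Ifit1 15.6, 24.9, 32.7 and 110 CPM, and Isg20 40.3, 30.01, 27.3 and 88.8 CPM. In each of these the Trp53-deleted ADT library alone was high. By contrast Gbp4 (83.6 and 70.5 CPM without and with ADT), Irf1 (105 and 90.3 CPM), Igtp (103 and 91.1 CPM) and Irf9 (52.5 and 49.9 CPM) were slightly lower, with log2 ratios of -0.23 to -0.07, and the counting intervals of these 4 ratios included 0.

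The role groups split in T-like cells. All 6 IFIT and viperin effectors were at least 1.5-fold higher (median log2 ratio 1.23), and so were Isg15 and Usp18 (0.86), 8 of 13 other antiviral effectors (0.72) and 2 of 3 nucleic acid sensors (1.03). Of 8 interferon-inducible GTPases 3 were higher, with a median of 0.10, and of 5 transcription factors 1 was, with a median of 0.02. The 3 largest T-like clusters had member medians of 0.60 in the cluster led by Icos and Il7r, 0.97 in the Cd8a cluster and 1.25 in the Foxp3 cluster.

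The member RNA of T-like cells lay in part in few cells. Without the 10% of cells with the highest member share in each library the median was 0.27 and 10 of 37 members were higher. Markers of macrophages moved with the result. All 10 macrophage markers were detected in T-like cells of every library, and their summed level was 516, 356, 621 and 1443 CPM. Scaled by C1qa, C1qb and C1qc, macrophage RNA at that level could carry 2.77%, 3.69%, 5.05% and 4.53% of the member CPM, and 12.99 of the 242 CPM of Cxcl10 in the Trp53-deleted ADT library. Neutrophil RNA scaled by S100a8 and S100a9 could carry 0.829%, 1.55%, 3.89% and 0.358%.

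NK-like cells, 119 with ADT and 105 without, had 18 of 33 members higher and 1 lower, where 8.33% and 23.0% of all genes were. Ifit1 stood at 27.6, 10.4, 13.3 and 129 CPM and was high in 1 library. Cxcl10 had 184, 31.2, 39.96 and 273 CPM, high in the first and last libraries. With the interferon genes kept in the clustering, 10 of 27 members were higher and 2 lower in NK-like cells (median 0.32). Macrophage markers in NK-like cells summed to 497, 120, 386 and 887 CPM and C1qa, C1qb and C1qc to 126, 22.1, 122 and 258 CPM, and their part in the result was not tested. Dendritic-like cells had 20 of 40 members higher and 4 lower (9.13% and 15.5% of all genes). Isg20 there had 15.9, 74.5, 5.46 and 75.4 CPM, high in both ADT libraries, and Ifit3 had 17.9, 96.7, 12.5 and 98.4 CPM. Their Irf1 level went the other way, at 70.6, 74.5, 186 and 80.4 CPM, and so did Gbp2 at 27.6, 57.4, 99.8 and 47.9 CPM: the Trp53-deleted library without ADT was the high one. In that class 5 of 6 IFIT and viperin effectors were higher (median 2.0), whereas of the 8 GTPases 2 were higher and 2 lower (median -0.34). The main dendritic-like cluster, cluster 14, had a median of 0.98. Macrophage markers in dendritic-like cells summed to 1482, 817, 671 and 1389 CPM and the 3 C1q genes to 461, 354, 199 and 507 CPM. Their part in the result was not tested.

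Fibroblast-like cells had 13 of 40 members higher and 0 lower (9.62% and 10.1% of all genes). Bst2 stood at 153, 150, 140 and 348 CPM and Irf7 at 33.5, 26.3, 45.3 and 110 CPM, both high in the Trp53-deleted ADT library alone. Cxcl9 had 33.2, 45.0, 13.9 and 51.3 CPM, where the Trp53-deleted library without ADT was low. The fibroblast-like class was made of different clusters in these libraries (1301 of 1583 cells from cluster 2 without ADT, and 278, 225 and 197 of 734 from clusters 21, 15 and 7 with ADT). A cluster led by Ptn, Crabp1 and Postn, with Cdkn2a among its leading genes, was kept out of the class after its makeup was seen (0, 0, 1 and 644 cells). Counting it as fibroblast-like turned the median to -0.33, with 4 members higher and 14 lower. Seminal vesicle-like cells had a median of 1.04 with 26 of 40 members higher and 4 lower, against 40% and 15.3% of all genes, and cluster 19 made up 413 of 415 cells without ADT and cluster 33 made up 134 of 147 with it. Taking the mean over cells of that class turned its median to -0.17. Its C1q level was 61.2% of that of macrophage-like cells without ADT and 8.67% with it, and macrophage markers summed to 15217 and 2183 CPM. Scaled by C1q, macrophage RNA could carry 127% and 5.50% of the member CPM, and its part in the ratio was not tested.

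Luminal progenitor-like cells had 1 of 39 members higher and 3 lower with ADT and deleted Trp53, where 6.61% and 7.46% of all genes were. The 1 higher member was Cxcl10, at 200.2, 106, 140 and 388 CPM, high in that library and low in the Trp53-intact ADT library, in which most other members were high. The 3 C1q genes, at 81.8, 22.4, 28.3 and 170 CPM, were also highest and lowest in these libraries, and the part of macrophage RNA was not tested. Lgals3bp had 434, 334, 408 and 243 CPM, lowest in the Trp53-deleted ADT library (log2 ratio -0.74). Oasl2 with 275 and 181 CPM, Irgm1 with 89.4 and 57.7 CPM, and Stat2 with 65.3 and 43.2 CPM were the next lowest. The member median was -0.04 in cluster 8 of this class and -0.52 in the shallow cluster 20. In the latter 2 of 29 members were higher and 13 lower (22.5% and 21.5% of all genes). In the joined epithelial-like class 1 of 40 members was higher and 2 were lower (5.73% and 7.6%), with 1 at 2-fold (2.38%). The other named members, Ifit3, Bst2, Gbp3 and Slfn4, had log2 ratios of -0.10 to 0.32.

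Neutrophil-like cells of the Trp53-deleted libraries had 1 of 40 members higher with ADT and 21 lower, where 15.2% and 14.1% of all genes were. Rsad2 stood at 3196, 2031, 4078 and 2050 CPM, lower with ADT in both genotypes. Oasl2 had 327, 352, 565 and 287 CPM, Oas2 62.7, 51.7, 93.7 and 45.3 CPM, and the RNA sensor Ddx58 133, 121, 240.3 and 124 CPM. For each of the 3 the Trp53-deleted library without ADT was the high one. Igtp and Gbp7 (log2 ratio 0.14 each), Irf7 (0.04) and Ifit3 (-0.02) stood at about equal levels in the last 2 libraries. Of 13 antiviral effectors 7 were lower, of 5 transcription factors 4, and of 8 GTPases 2 (medians -0.68, -0.75 and -0.09). At 2-fold, 0 members were called in either direction. At Leiden resolution 2, a neutrophil-like cluster with the members Slfn4 and Rsad2 among its leading genes held 2, 1, 669 and 0 cells. Another, led by S100a8 and S100a9, held 557, 897, 56 and 437 cells. S100a8 and S100a9 summed to 48169, 45271, 23980 and 34462 CPM in the class. So these libraries held largely different neutrophil-like cells, and the part of that in the ratios was not tested.

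Without ADT, the Trp53-deleted library had higher members than the Trp53-intact library in 11 of 12 classes by the median, or in 6 of 12 once the lowest class level of each library was taken off as a background. All genes shifted as well, since the median over all genes lay 0.01 to 0.28 above 0 on the log2 scale in these classes, and 11 of 12 member medians lay above the median over all genes. Luminal progenitor-like cells had a median of 0.51, with 17 of 39 members at least 1.5-fold higher and 0 lower (3.01% and 2.71% of all genes). Taking off the median over all genes left 0.41, with 10 members higher and 1 lower. The share of all genes was not counted after that centring, here or in the classes below. Gbp3 was at 7.70 and 26.8 CPM, Isg15 at 80.0 and 172 CPM, Gbp2 at 15.7 and 38.0 CPM, and Ifit2 at 7.85 and 21.4 CPM, whereas Cxcl10 was at 200.2 and 140 CPM. Of the 8 GTPases 6 were higher, and of the 13 antiviral effectors 3.

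The joined epithelial-like class had 20 of 40 members higher and 0 lower (3.48% and 2.74%), with 7 at 2-fold (0.481%). Other epithelial classes shifted further. Basal-like cells had a median of 1.04 with 27 of 33 members higher and 1 lower (25.1% and 5.99% of all genes), or 0.76 with 20 higher and 2 lower after taking off the median over all genes. Their Ifit1, Isg15, Rtp4 and Ifi44 levels led, and Cxcl10 was lowest, at 318 and 193 CPM. Luminal-like cells, 59 with Trp53 deleted and 645 with it intact, had a median of 1.2 with 25 of 34 members higher and 2 lower (22.0% and 20.7%). Irf7 in that class was at 131 and 617 CPM and Bst2 at 135 and 437 CPM.

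Endothelial-like cells had a median of 0.65, with 19 of 36 members higher and 1 lower (24.6% and 7.06% of all genes), and 0.39 with 12 higher after taking off the median over all genes. Of 8 GTPases 6 were higher there. Gbp4 had 57.4, 71.2, 189 and 73.4 CPM and Gbp7 93.6, 125, 218 and 118 CPM, both high in the Trp53-deleted library without ADT alone. Cxcl10 in endothelial-like cells was lowest in that same library, at 127, 71.2, 28.7 and 246 CPM. Neutrophil-like cells had a median of 0.53 with 16 of 40 members higher and 1 lower (20.9% and 5.61%), or 0.29 with 10 higher and 2 lower after taking off the median over all genes. Oas1a, whose counts are uncertain, led with 9.68 and 37.2 CPM, followed by Igtp with 36.4 and 112 CPM, the RNA sensor Ifih1 with 60.8 and 149 CPM and Irgm1 with 108 and 245 CPM. At Leiden resolution 2 the cluster led by S100a8 and S100a9 held 557 and 56 neutrophil-like cells of these libraries. The cluster with Slfn4 and Rsad2 among its leading genes held 2 and 669, and the part of this in the ratios was not tested.

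T-like cells had a median of 0.37 with 15 of 36 members higher and 0 lower (21.7% and 8.29%), 0.19 with 8 higher and 1 lower after that centring, and -0.11 with 4 higher and 5 lower after taking off the lowest class level of each library as a background. Macrophage-like cells had 0.43, dendritic-like cells 0.37, fibroblast-like cells 0.15 and NK-like cells -0.07. Taking off the lowest class level turned the dendritic-like median to -0.15 and the fibroblast-like one to -0.33, and leaving out the 10% of cells with the highest member share turned the NK-like one to 0.33. The dendritic-like cells had 11 of 39 members higher and 7 lower (22.8% and 6.33%), and the NK-like cells 0 of 27 higher and 6 lower (28.5% and 7.32%).

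With ADT, 9 of 11 classes had a member median above 0 for Trp53-deleted against Trp53-intact, and luminal progenitor-like and dendritic-like cells had one below 0. T-like cells had a median of 1.1, with 30 of 39 members higher and 0 lower (10.7% and 4.41% of all genes), and their 3 largest clusters had medians of 0.96, 1.26 and 1.32. Ifit3 was at 10.9 and 94.1 CPM, Mx1 at 3.64 and 31.3 CPM and Oas3 at 9.0 and 49.9 CPM. Here 6 of 8 GTPases and 3 of 5 transcription factors were higher too. Luminal progenitor-like cells had a median of -0.34, with 1 of 40 members higher and 8 lower (4.36% and 3.36%). Slfn4 was at 28.2 and 7.97 CPM, Oas2 at 116 and 55.3 CPM, Oasl2 at 330 and 181 CPM and Stat2 at 79.2 and 43.2 CPM, and Cxcl10 was the 1 higher, at 106 and 388 CPM. The 3 C1q genes stood at 22.4 and 170 CPM there, and the part of macrophage RNA was not tested. Both main clusters of the class had medians below 0, at -0.29 in cluster 8 and -0.90 in cluster 20. In the joined epithelial-like class 2 of 40 members were higher and 6 lower (3.8% and 3.54%), with 1 higher at 2-fold (1.48%).

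Of the other classes with ADT, NK-like cells had a median of 0.54 with 15 of 35 members higher and 1 lower (10.4% and 13.8%), or 0.11 with 8 of 29 higher when interferon genes were kept in the clustering. The macrophage markers in that class, 120 and 887 CPM in these libraries, moved with it, and their part was not tested. Endothelial-like cells had 0.41 with 16 of 38 higher and 2 lower (17.3% and 12.5%). Fibroblast-like cells had 0.45 with 15 of 40 higher and 1 lower (9.42% and 6.23%), or -0.17 with 6 higher and 11 lower once the cluster with Ptn and Cdkn2a was counted in, and most of its cells came from cluster 7 with Trp53 intact (848 of 1172) and from clusters 21, 15 and 7 with Trp53 deleted. Neutrophil-like, macrophage-like and dendritic-like cells had medians of 0.19, 0.10 and -0.02, and smooth muscle and pericyte-like and B-like cells 0.57 and 0.35. In macrophage-like cells 6 of 40 members were higher and 5 lower (3.64% and 6.11% of all genes). Within that class cluster 1 had a median of 0.22, with 9 of 40 higher and 1 lower (4.65% and 5.03%). Cluster 27 had 0.55, with 18 of 39 higher and 1 lower (10.3% and 12.5%). The highest median of the 11 was 1.29 in seminal vesicle-like cells (62 and 147 cells, mostly of cluster 33 in both), where macrophage markers summed to 862 and 2183 CPM and their part was not tested. These comparisons share libraries with the others above, so that their ratios are not independent of each other.

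To see whether all cells of a class or only some held the member RNA, each cell was thinned to 1000 UMIs. Luminal progenitor-like cells differed in depth between the libraries, with medians of 25366, 9270, 31555 and 12421 UMIs per cell, and thinning made them equal. The median number of member UMIs per thinned cell was 2, 4, 2 and 2. The share of cells with 5 or more was 15.6%, 38.3%, 27.6% and 21.1%, with an interval of 33.7% to 42.9% in the Trp53-intact ADT library and 12.6% to 18.9% without ADT. Without thinning the shares were 81.5%, 92.0%, 88.5% and 73.1%. Cells with no member UMI made up 18.4%, 6.71%, 16.3% and 18.4%. The 10th percentile was 1 in the Trp53-intact ADT library and 0 elsewhere. Before thinning, the shallow cluster 20 made up 181 of 607, 198 of 464, 63 of 323 and 79 of 197 cells of the class. Its summed member level in the Trp53-intact ADT library was 6462 CPM, against 4314 CPM in cluster 8. The part of this mix in the per-cell values was not tested. The share with 30 or more was 0.371%, 0.447%, 1.60% and 1.58% of 539, 447, 312 and 190 cells. It was higher in both Trp53-deleted libraries, but few cells lie behind each share, and no interval was computed.

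In T-like cells the median was 1 in all 4 libraries. The share of cells with 1 or more member UMIs was 58.4%, 52.1%, 69.1% and 71.3%, and with 2 or more it was 23.5%, 21.2%, 37.2% and 44.4%. The share of cells with 5 or more member UMIs was 2.33%, 2.28%, 4.89% and 12.8%, with intervals of 3.13% to 7.25% and 10.6% to 15.2% for the last 2 libraries. The 10% of T-like cells with the most member UMIs held 51.2% of the member UMIs in the Trp53-deleted ADT library, and between 37.3% and 44.4% in the others. Dendritic-like cells had shares of 5.90%, 13.04%, 10.3% and 16.5%. Neutrophil-like cells were the most uneven: their median was 2, 2, 4 and 2 UMIs but the 90th percentile was 39, 25.5, 46 and 31, and 49.9% of cells had 5 or more in the Trp53-deleted library against 29.7% to 33.2% in the others. Cells under 1000 UMIs were left out, which took 146 of 860 neutrophil-like cells in that library and 68 of 607 luminal progenitor-like cells in the Trp53-intact library.

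**Figure D4:**
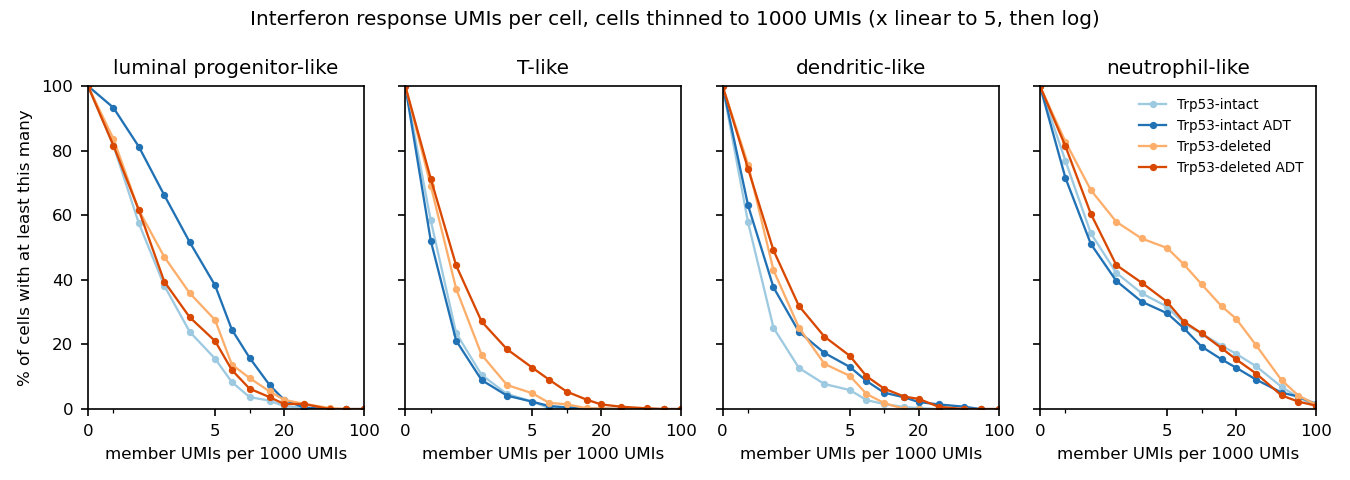
Share of cells (y axis, %) with at least the given number of interferon response UMIs (x axis, linear to 5 and log beyond) after thinning each cell to 1000 UMIs, for 4 cell classes and the 4 libraries. At 5 UMIs the highest curve in luminal progenitor-like cells is Trp53-intact ADT (38.3%). In T-like cells it is Trp53-deleted ADT (12.8%) and in neutrophil-like cells Trp53-deleted (49.9%). The luminal progenitor-like Trp53-intact ADT curve falls below both Trp53-deleted curves at 30 UMIs, where few cells remain.

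Ifng, interferon gamma, was at 292.5, 32.5, 118 and 70.2 CPM in NK-like cells and at 71.4, 17.8, 29.0 and 80.9 CPM in T-like cells. Its level in NK-like cells was highest in the Trp53-intact library without ADT, and in T-like cells both the first and the last libraries were high. In the last, 88 of 846 T-like cells held its 318 UMIs, 61 of them in 1 cell. Ifnb1, interferon beta, came from few cells. Seminal vesicle-like cells of the Trp53-intact library held 232 UMIs in 19 of 106 cells. Those cells also had C1qa, C1qb and C1qc at 31.8% of the macrophage-like level and macrophage markers at 8307 CPM, and the part of macrophage RNA in the Ifnb1 count was not tested. In the same library the unnamed cluster led by Ccl8, Folr2 and Cd163 held 169 UMIs in 36 of 458 cells, and macrophage-like cells 119 UMIs in 22 of 957. Luminal progenitor-like cells of the Trp53-deleted library held 138 UMIs in 5 of 323 cells, 82 of them in 1 cell, and in the Trp53-deleted ADT library 13 UMIs in 2 of 197 cells. In the Trp53-intact ADT library, where the epithelial members were highest, luminal progenitor-like cells held 1 UMI of Ifnb1. Genes for interferon alpha had at most 2 UMIs in any class and library.

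Of the 6 receptor genes, 0 passed 1.5-fold in luminal progenitor-like cells in any of the 4 comparisons. With 3.01% to 6.61% of all genes higher and 2.71% to 7.46% lower there, that count is not a result about the receptors. Ifnar1 was at 20.4, 22.3, 17.3 and 19.1 CPM there, Ifnar2 at 36.7, 45.4, 38.7 and 45.9 CPM, Ifngr1 at 61.4, 92.6, 71.8 and 65.0 CPM, and Ifngr2 at 101, 95.5, 116 and 76.1 CPM. Ifnlr1, the receptor chain for interferon lambda, was at 8.70, 10.4, 12.2 and 7.50 CPM, and its partner Il10rb at 36.2, 39.5, 34.4 and 31.6 CPM. In T-like cells Ifngr1 was at 774, 557, 562 and 704 CPM and Ifnar1 at 155, 96.7, 118 and 82.2 CPM.

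A wider list of other interferon-stimulated genes was counted in the same way. In luminal progenitor-like cells with ADT and intact Trp53, 45 of 94 measured were higher and 2 lower (median 0.53), against 6.13% and 5.32% of all genes, led by Ifi27l2a, Mnda, Ifi204 and Serpina3g. With deleted Trp53 it was 13 higher and 5 lower of 87 (median -0.12), against 6.61% and 7.46% of all genes. T-like cells of the 2 ADT libraries had 42 of 92 higher and 1 lower with Trp53 deleted (median 0.53), against 10.7% and 4.41% of all genes, led by Ifi27l2a, which was at 462, 371, 726 and 1388 CPM. Against the Trp53-deleted library without ADT, 15 of 92 were higher and 7 lower in T-like cells (median 0.26), where 10.1% and 17.5% of all genes were.

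Over the 56 combinations of class and library with at least 50 cells, covering 17 classes, most members moved together once each was centred within its class. The median correlation of a member with the mean of the other members was 0.65, against 0.15 for all 11227 genes ranked, and 32 of 40 members were over 0.5. Usp18 (0.86), Irf7 (0.85) and Oas1a (0.84) followed the rest most closely. Slfn4 (0.16), Gbp5 (0.10), Lgals3bp (0.24), Irf1 (0.29), Cxcl10 (0.32) and Rsad2 (0.38) followed least. The list was chosen with earlier results of these data known. The points share libraries and differ in depth, so these values are a description with no test. Outside the interferon lists, the genes most like the mean of the members were Ogfr (0.80), the MHC class I genes H2-T22 (0.79) and H2-Q7 (0.76), Ccdc138 (0.72), Ctnnbip1 (0.72), Akt1 (0.72), Gnb2 (0.72), Ube2d2a (0.71), Ssx2ip (0.71) and Adrm1 (0.71).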

How the data were processed

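The authors deposited 1 matrix of UMI counts per gene and barcode (36326 barcodes), not normalised. Per the submitters' processing notes it was made with Cell Ranger 2.1.1 on mm10, whereas the matrix header, per the file headers, gives software version 3.1.0. Barcodes were assigned to libraries by the submitters' table of suffixes. What else the genotypes of all 4 groups have in common is not reported here. Cells were kept with at least 500 UMIs, 200 genes and at most 20% mitochondrial UMIs. The automatic doublet threshold of Scrublet in scanpy 1.11.5 marked 0, 0, 1 and 1 barcodes, so the highest scores were left out instead, at a share growing by 0.008 per 1000 barcodes (609, 529, 356 and 816 cells). After scaling to 10000 UMIs a cell, clusters were made without member and pathway genes from 2000 variable genes, 40 principal components, 20 neighbours and Leiden resolution 1 (leidenalg 0.10.2). Naming thresholds, and 1 cluster kept out of the fibroblast-like class, were set after the clusters were seen, and the names may differ from the study's. CPM is the sum of a gene's UMIs over the cells of a class in a library (at least 50 cells) over the sum of all genes; members and genes needed 20 UMIs over both libraries, and ratios used 5 CPM added. Members named per class and comparison are up to 4 with the highest and 4 with the lowest ratio among those with at least 100 UMIs, and for levels those in the class of their highest CPM. Members and lists were chosen with earlier results of these data known. Intervals were exact (Poisson for CPM, Clopper-Pearson for shares of cells, conditional binomial for ratios of CPM). The log2 ratios, their intervals and the random draw used for thinning were tested on simulated counts, and the other steps were not. Gene positions came from GENCODE M21.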

Additional observations from a re-analysis of the deposited data

Results flagged for a closer look

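Effects of ADT that point opposite ways in the genotypes were looked for in the member medians. In epithelial-like cells, which join all 3 epithelial classes, the median log2 ratio of the members was 0.72 with Trp53 intact and -0.0497 with Trp53 deleted. Luminal-like cells were almost absent from that joined class with ADT (3 cells with Trp53 intact and 1 with it deleted). Luminal progenitor-like cells alone gave 0.73 and -0.0348. At Leiden resolution 2 the cells of that class outside the shallow cluster lay largely in different clusters with and without ADT. Seminal vesicle-like cells gave -0.25 and 1.04, the opposite order, and there most cells came from different clusters with and without ADT. That class also held the macrophage genes C1qa, C1qb and C1qc at 31.8% of the macrophage-like level without ADT and 4.26% with it where Trp53 was intact, and at 61.2% and 8.67% where it was deleted, which goes against its name, and their part in the ratios was not tested. Each value compares 1 library with 1 library, so the difference between the genotypes was not tested.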

How the results depend on the processing

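No paired analysis was possible because each group is 1 library. For the summary counts and per-cell means, 174 values under other settings stayed within 1.5 times or within the interval and 20 did not. For the member medians and counts of single classes, 2048 values stayed so, 443 moved and 2 medians of at least 1.5-fold turned sign. Among those medians, 24 moved and 27 stayed with the lowest class level taken off. Without the top 10% of cells, 18 moved and 32 stayed. Taking off the lowest class level of each library left 5 of 14 classes with a median above 0 for ADT with Trp53 intact (9 before) and 6 of 12 for the genotypes without ADT (11 before). In epithelial-like cells, members higher with ADT and intact Trp53 fell from 25 to 11 at 2-fold, where 1.65% of all genes passed. For ADT with deleted Trp53 the 1 member became 2 with 1 CPM added, with centring on all genes, with interferon genes kept in the clustering, with doublets kept and without the top 10% of cells, and 3 with a mean over cells or the lowest class level taken off. For the genotypes without ADT the count went from 20 to 12 without the top 10% of cells or with the lowest class level taken off, and to 7 at 2-fold (0.481% of all genes). With ADT, 2 members became 1 with 10 CPM added, at 2-fold (1.48%), without the top 10% of cells, with the lowest class level taken off and in luminal progenitor-like cells alone. Neutrophil-like cells averaged 16.4 member UMIs per 1000 UMIs in the Trp53-deleted and 9.36 in the Trp53-deleted ADT library when thinned to 2000 UMIs (15.8 and 9.70 when thinned to 1000). The Schwann-like median for ADT with Trp53 intact turned to -2.74 at 100 UMIs, which left 2 members, and the seminal vesicle-like median for ADT with Trp53 deleted to -0.17 with a mean over cells. The cause of these changes was not tested, apart from the stricter fold or minimum. Medians of luminal progenitor-like cells for ADT ran from 0.66 to 0.98 with Trp53 intact and from -0.26 to 0.03 with Trp53 deleted over 18 settings, and those of T-like cells for ADT with Trp53 deleted from 0.27 to 1.04. Counting the cluster with Ptn and Cdkn2a as fibroblast-like, and the Folr2 and Cd163 cluster as macrophage-like, were settings added after seeing the data. With 1 library per group the spread between mice is unknown.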
